A study of Homo sapiens with 6 samples.

Results

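The RAB GTPase genes of this series are the 60 genes whose symbol is RAB followed by a number and at most 1 letter, among 18417 genes that had a probe set (a group of probes read as 1 value) carrying a single gene symbol. Membership went by name alone, so relatives such as the RAB11 interacting proteins are not members. The family itself was chosen with earlier results of these data known. Of the 60, 59 are protein-coding and RAB1C is annotated as a pseudogene. The RefSeq table also lists RAB4B, RAB6C, RAB6D and RAB34, which lay only on probe sets shared with other genes. Expression was measured in THP-1, an established human line grown from a monocytic leukaemia, on 6 Affymetrix arrays of total RNA. One group of 3 arrays held unstimulated cells. The other 3 held cells given 200 nM PMA (a phorbol ester, used to switch on protein kinase C) for 3 days and then kept without it for 3 days, which makes them macrophage-like. Both groups were grown in the same medium with 10% FBS, and the labels name no solvent control for PMA. The labels do not say whether the 3 arrays of a group are 3 cultures; the p-values therefore rest on array-to-array spread that may be purely technical. In bulk RNA, fewer cells of a kind and less RNA per cell cannot be told apart.

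RAB proteins are small GTPases that act as switches on the membranes of the cell. Bound to GTP they recruit effectors such as tethers, motor adaptors and lipid enzymes, and each RAB marks its own compartment, from the endoplasmic reticulum and Golgi to endosomes, lysosomes and secretory granules. Guanine nucleotide exchange factors (GEFs) load them with GTP, GTPase-activating proteins (GAPs) turn them off, GDI proteins carry them through the cytosol, and a prenyl group added at the carboxyl end holds them on the membrane. In macrophages they are known for steering phagosomes from early to late stages, and in granule-bearing white blood cells for the release of granules.

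Array medians over all probe sets lay between 6.10 and 6.25 on the log2 scale, and arrays of the same group correlated at 0.988 to 0.995, arrays of different groups at 0.958 to 0.968. The arrays farthest from their own group were unstimulated replicate 1 (root mean square difference over all genes 0.298) and PMA replicate 3 (0.335), against 0.200 to 0.255 for the others; results that change without them are given as such. The 6 measured markers of myeloid identity all lay above every array median, with summed log2 values of 60.03 to 62.4 unstimulated and 64.5 to 65.8 with PMA. Of these, ITGAM (2.01), CD14 (2.46) and CSF1R (1.94) were higher by the log2 fold changes given, LYZ was lower (-2.76), and SPI1 and CD68 did not pass. The size of the CD14 rise (standard error 0.53) leaned on unstimulated replicate 1, since the unstimulated arrays read 7.51, 9.67 and 9.65. Of 5 macrophage markers, 4 were higher with PMA, with summed log2 values of 25.4 to 28.4 unstimulated and 48.8 to 51.4 with PMA. Both measured neutrophil markers were lower, with summed values of 17.5 to 18.0 and then 11.3 to 12.4. T cell markers summed to 19.3 to 20.0 and 19.4 to 20.5, with all 4 below every array median in both groups. NK cell markers summed to 11.6 to 11.97 and 11.6 to 12.2, again with all 3 below the medians. Of 4 fibroblast markers 1 was higher (PDGFRB), of 4 epithelial markers 1 was lower (KRT18), and of 3 B cell markers 1 was lower (CD79A). The 2 erythroid and 3 megakaryocyte markers did not pass.

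With PMA, 29 of the 60 RAB genes changed, 20 higher and 9 lower. In the limma fit over all genes with Benjamini-Hochberg adjustment, that is 48.3% of the RAB genes, against 26.4% of all 18417 genes tested. Over all genes 13.2% were higher and 13.2% lower. The RAB genes were brighter than most probe sets, with array medians of 8.01 to 8.17 against 6.10 to 6.25 over all probe sets. The latter include 12083 probe sets with no symbol, and the RAB values use 1 probe set per gene. With the dimmest 25% of genes left out, 27 of 54 RAB genes were called (50%), against 33.8% of all genes. Of the 29, 18 changed at least 1.5-fold, 11 higher and 7 lower, where 16.7% of all genes did, 9.38% higher and 7.35% lower. The median log2 fold change was 0.14 over the RAB genes and -0.03 over all genes, and the single values ran from -2.10 to 2.93. The 3 PMA arrays lay all above or all below the 3 unstimulated arrays for 35 RAB genes, 24 above and 11 below, where 41.2% of all genes did so, 19.2% above and 22% below. Centring the arrays on their medians moved the share of called genes that were higher from 50.1% to 61.8% over all genes and from 69% to 75% over RAB genes, and the median of all genes from -0.03 to 0.06. Without unstimulated replicate 2, 13 RAB genes were higher, and without PMA replicate 1, 11 were, with 9 lower in both cases. In these 2 settings the share of all genes called fell as well, from 26.4% to 19.6% and to 18%. With unstimulated replicate 1 and PMA replicate 3 both left out, 22 were higher and 11 lower, while the share of all genes called also went up, from 26.4% to 34.3%.

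**Figure D1:**
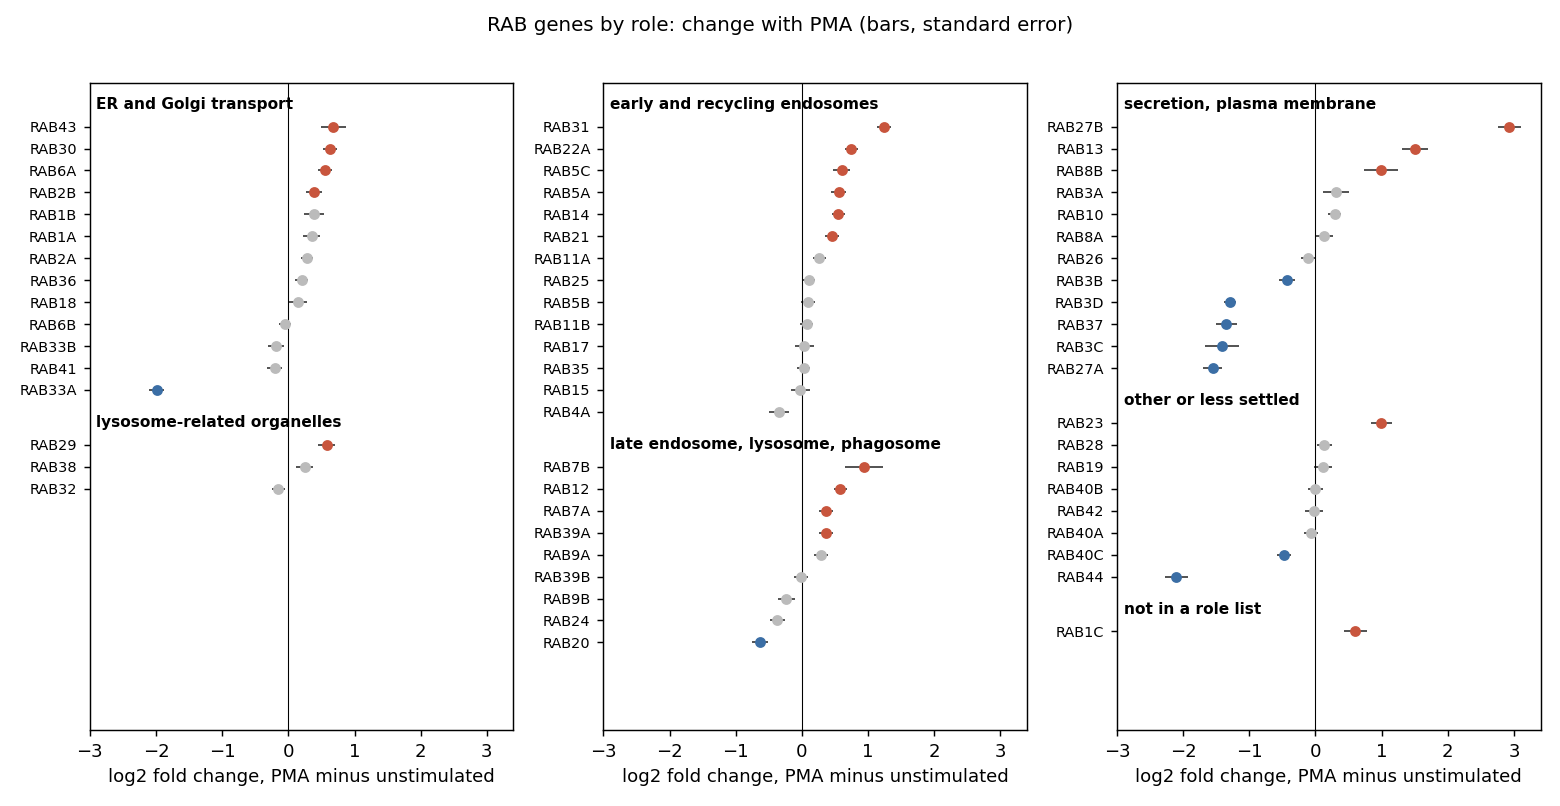
Log2 fold change of each RAB gene, PMA minus unstimulated (horizontal axis, log2 scale), with its standard error, grouped by the compartment or route it is known for. Red points rose and blue points fell at an adjusted p of 0.05 and grey points did not pass; RAB27B lies farthest to the right at 2.93 and RAB44 farthest to the left at -2.10.

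The RABs of secretion and of transport to the plasma membrane went both ways and included the largest rise, that of RAB27B. Of 12 measured, 8 changed, 3 higher (RAB27B, RAB13 and RAB8B) and 5 lower (RAB27A, RAB3B, RAB3C, RAB3D and RAB37), and the group's median was 0.01. That is 66.7% called, against 48.3% of all RAB genes and 26.4% of all genes, 13.2% in each direction. Numbers given with ± are limma log2 fold changes (positive where PMA was higher) and their standard errors, from n = 3 arrays in each group. Changes in a ratio of paralogs are the exception. There the number is the difference between group means, with a standard error from the spread of that ratio within each group and not from limma.

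The pair RAB27A and RAB27B, which dock secretory granules and multivesicular bodies at the plasma membrane, moved in opposite directions. RAB27B read 4.73, 5.25 and 5.40 on the unstimulated arrays and 8.19, 7.97 and 8.02 on the PMA arrays (log2 values, replicates 1 to 3). All PMA arrays lay far above the unstimulated ones, a rise of 2.93 ± 0.17 or 7.62-fold (adjusted p = 2.75e-05). The unstimulated arrays lay a little above the lower quartile of all probe sets (4.46 to 4.57 over the arrays). RAB27A read 9.67, 9.53 and 9.69 unstimulated and 8.28, 8.19 and 7.77 with PMA. It fell by 1.55 ± 0.14 on the log2 scale, or 2.93-fold (adjusted p = 0.000214), and the groups were far apart. The log2 ratio of RAB27B to RAB27A within an array, which compares their changes and not their amounts, went from between -4.94 and -4.28 unstimulated to between -0.22 and 0.24 with PMA. That is a change of 4.48 ± 0.26, with an exact two-sided permutation p of 0.1, the smallest that 3 against 3 arrays can give.

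The RAB3 proteins, which prime granules for regulated exocytosis, were lower for 3 of their 4 members. RAB3D, the form best known from granules of blood and gland cells, read 8.39, 8.26 and 8.33 unstimulated and 7.06, 7.10 and 6.95 with PMA. The arrays of each group lay close together and the groups far apart, 2.44-fold lower (-1.29 ± 0.09, adjusted p = 5.79e-05). RAB3C fell from 6.78, 5.99 and 5.64 to 4.73, 4.72 and 4.73 (-1.41 ± 0.26, adjusted p = 0.00523); its unstimulated arrays were spread, with replicate 1 highest. Its PMA arrays were a little above the lower quartile, and RAB3C is known mainly from neurons. RAB3B changed least of the 3 (-0.43 ± 0.12, adjusted p = 0.0322) and lost its call without unstimulated replicate 1, unstimulated replicate 3, PMA replicate 2 or PMA replicate 3 (-0.51 to -0.34, adjusted p up to 0.11). It also lost it with arrays centred on their medians (-0.34, adjusted p = 0.0937) and with cyclic loess (-0.35, adjusted p = 0.0884). RAB3A did not pass (0.31 ± 0.20, adjusted p = 0.313), but without PMA replicate 3 it was called higher (0.54, adjusted p = 0.0203).

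RAB37, another RAB of granule release, read 6.13, 6.62 and 6.29 unstimulated and 4.801, 5.21 and 4.99 with PMA. The groups did not overlap and the fall was -1.35 ± 0.16 (adjusted p = 0.000686). CSF3R and CXCR2, the neutrophil markers measured, were lower in the same arrays (-3.40 ± 0.25 and -2.46 ± 0.13); whether their fall has a part in those of RAB27A, RAB3D, RAB37 and RAB44 was not tested.

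RAB13 and RAB8B belong to a branch of RABs that carry cargo to the plasma membrane and its junctions. RAB13 read 8.65, 9.22 and 9.32 unstimulated and 10.64, 10.76 and 10.29 with PMA. It rose by 1.505 ± 0.20 (2.84-fold, adjusted p = 0.00124), and its other probe set gave 1.18 ± 0.19. RAB8B read 8.37, 9.28 and 9.41 unstimulated and 10.16, 9.92 and 9.94 with PMA, a rise of 0.99 ± 0.25 (adjusted p = 0.024) with unstimulated replicate 1 lowest; without that array the rise was 0.66. RAB8B lost its call without PMA replicate 1 or PMA replicate 2 (0.91 and 1.03, adjusted p up to 0.0896). RAB10 of the same branch lay higher on all PMA arrays but missed the threshold (0.29 ± 0.10, adjusted p = 0.0634; 0.38, adjusted p = 0.0257, with arrays centred on their medians), as did RAB8A with overlapping groups (0.13 ± 0.13, adjusted p = 0.542). RAB26 also overlapped (-0.11 ± 0.11).

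**Figure D2:**
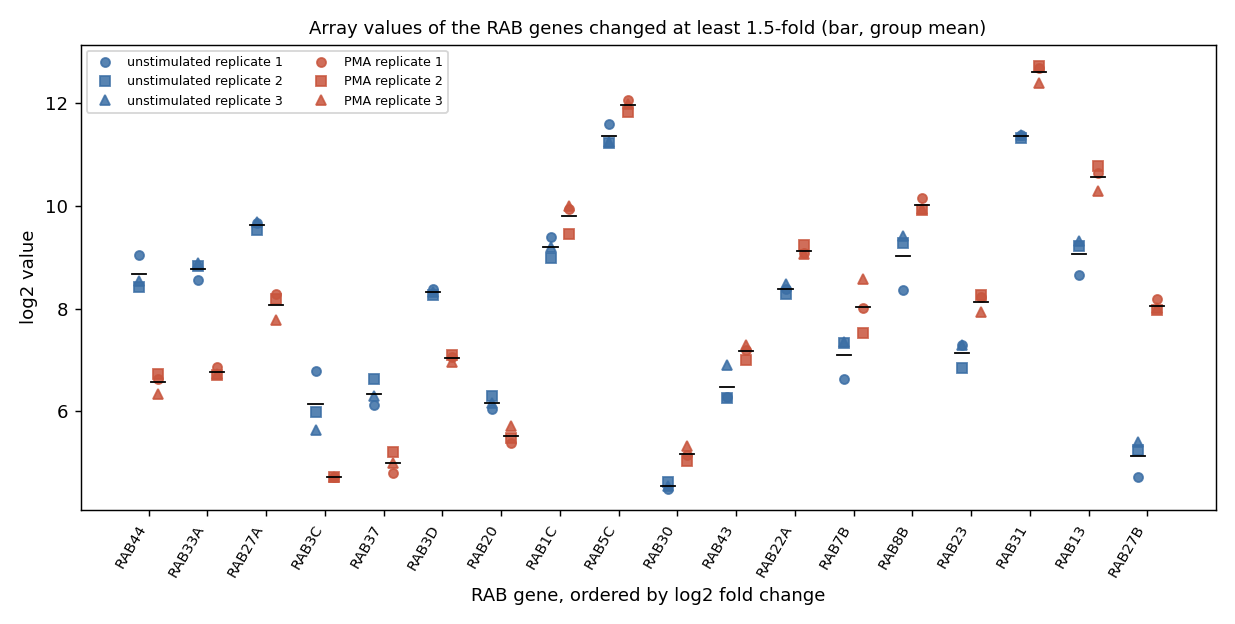
Log2 value (vertical axis) on each of the 6 arrays for the 18 RAB genes past the threshold and at least 1.5-fold changed, ordered by log2 fold change; blue marks are unstimulated arrays, red marks PMA arrays, shapes the replicate numbers and bars the group means. In all 18 the groups do not overlap, and RAB8B, RAB7B, RAB3C and RAB43 show the widest spread within a group.

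RABs of early and recycling endosomes moved in a single direction where they moved. Of 14 measured, 6 rose (RAB31, RAB22A, RAB5C, RAB5A, RAB14 and RAB21), none fell in the limma fit and 8 did not pass. The share called was 42.9%, against 26.4% of all genes, and the median was 0.18. Without PMA replicate 3, 1 member (RAB4A) was called lower (-0.47, adjusted p = 0.0481). At an unadjusted p of 0.05, 7 of the 14 passed, the addition being RAB11A, where 36.6% of all genes passed. RAB31 led. It is a relative of RAB5 and RAB22A that works between the trans-Golgi network, endosomes and phagosomes. It read 11.37, 11.33 and 11.38 unstimulated and 12.69, 12.72 and 12.39 with PMA, so the spread within a group was small beside the rise of 1.24 ± 0.11 (2.36-fold, adjusted p = 0.00019). RAB22A, which sorts cargo in early endosomes, went from 8.38, 8.28 and 8.49 to 9.09, 9.24 and 9.06 (0.75 ± 0.10, adjusted p = 0.00125).

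RAB5 defines the early endosome and the young phagosome. RAB5A read 9.30, 9.53 and 9.66 unstimulated and 10.01, 10.08 and 10.07 with PMA, a rise of 0.56 ± 0.11 (1.47-fold, adjusted p = 0.00828). RAB5C rose from 11.60, 11.21 and 11.24 to 12.05, 11.82 and 11.98 (0.60 ± 0.13, adjusted p = 0.0112), with a call just lost without PMA replicate 1 (0.55, adjusted p = 0.0508). RAB5B did not pass (0.09 ± 0.11, adjusted p = 0.618). The RAB5B to RAB5A log2 ratio was -0.01 to 0.22 on unstimulated arrays and -0.50 to -0.19 on PMA arrays, without overlap (exact two-sided permutation p = 0.1, the smallest possible). RAB14, of the Golgi-to-endosome route, went from 10.17, 10.25 and 10.42 to 10.87, 10.84 and 10.77 (0.55 ± 0.10, adjusted p = 0.00516). RAB21, which moves integrins through endosomes, rose from 8.98, 9.05 and 9.28 to 9.59, 9.62 and 9.48 (0.46 ± 0.11, adjusted p = 0.0159) but not past the threshold without unstimulated replicate 2, PMA replicate 1 or PMA replicate 2 (0.40 to 0.55 over the 6 omissions, adjusted p up to 0.0615).

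RAB11A, the main RAB of the recycling endosome, read 9.58, 9.52 and 9.69 unstimulated and 9.90, 9.78 and 9.91 with PMA. The arrays did not overlap, yet the difference of 0.27 ± 0.09 had an adjusted p of 0.0729; it passed with arrays centred on their medians (0.35, adjusted p = 0.034) and with cyclic loess (0.34, adjusted p = 0.0245). RAB11B (0.07 ± 0.10), RAB35 (0.03 ± 0.10) and RAB4A (-0.35 ± 0.15, adjusted p = 0.143) overlapped between the groups. RAB15, RAB17 and RAB25, better known from neurons and epithelia, lay between -0.03 and 0.10.

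The starts of the 3 members with the largest rises (RAB27B, RAB13 and RAB31) and of 2 that fell far (RAB27A and RAB3D) are printed as the 250 bases before the start, 5′ to 3′ on the gene's strand, so that opposite movers can be set side by side. They are RefSeq sequences of GRCh38.p14, whose table matched 46 of the 60 RAB genes by symbol, and for a gene with several starts the first listed was taken (12 of the 46 had several). The windows are chr18:54717607-54717856 on the plus strand for RAB27B, chr18:9708051-9708300 on the plus strand for RAB31, chr1:153986340-153986589 on the minus strand for RAB13, chr15:55319124-55319373 on the minus strand for RAB27A, and chr19:11339658-11339907 on the minus strand for RAB3D. Capitals mark the GC box (GGGCGG or its complement CCGCCC) and, in RAB31 alone of the 5, the E-box (CACGTG).
RAB27B: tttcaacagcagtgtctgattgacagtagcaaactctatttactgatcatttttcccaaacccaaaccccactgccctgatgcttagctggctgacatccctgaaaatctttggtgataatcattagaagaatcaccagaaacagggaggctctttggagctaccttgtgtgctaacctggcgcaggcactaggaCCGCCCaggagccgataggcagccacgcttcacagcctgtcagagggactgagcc
RAB31: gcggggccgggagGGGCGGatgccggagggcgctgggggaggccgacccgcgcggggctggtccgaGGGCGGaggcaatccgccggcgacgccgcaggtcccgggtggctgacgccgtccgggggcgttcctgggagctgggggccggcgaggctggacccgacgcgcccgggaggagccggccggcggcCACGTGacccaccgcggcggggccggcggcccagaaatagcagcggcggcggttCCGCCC
RAB13: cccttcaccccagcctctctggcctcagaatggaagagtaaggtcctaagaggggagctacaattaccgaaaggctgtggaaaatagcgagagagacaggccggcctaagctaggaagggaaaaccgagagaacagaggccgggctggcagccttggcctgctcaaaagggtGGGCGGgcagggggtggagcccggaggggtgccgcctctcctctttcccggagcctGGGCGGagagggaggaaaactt
RAB27A: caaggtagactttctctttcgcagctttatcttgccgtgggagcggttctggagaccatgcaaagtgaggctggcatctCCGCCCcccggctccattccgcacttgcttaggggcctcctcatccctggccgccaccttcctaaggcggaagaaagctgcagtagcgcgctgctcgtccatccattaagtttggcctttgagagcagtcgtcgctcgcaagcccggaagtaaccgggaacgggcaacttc
RAB3D: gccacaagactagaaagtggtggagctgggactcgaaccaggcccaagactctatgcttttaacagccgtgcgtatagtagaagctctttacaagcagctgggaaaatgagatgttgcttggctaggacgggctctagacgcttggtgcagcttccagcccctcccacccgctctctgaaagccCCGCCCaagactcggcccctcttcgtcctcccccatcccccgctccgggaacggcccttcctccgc

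The RAB27 windows differ in base composition: RAB27B has 50.4% G and C and 4 CG steps, RAB27A 58.8% and 17, while RAB31 has 82.0% and 40. A GC box on either strand was in 37 of the 46 RAB windows (80.4%), against 57.5% of the windows of 14239 tested genes. It was in 14 of 18 for members that rose, 4 of 5 for members that fell and 19 of 23 for members that did not pass. The RAB windows had medians of 65.0% G and C and 21 CG steps, against 62.8% and 18 for all tested genes. The AP-1 motif TGANTCA was in 0 of the 18 that rose, in 1 of the 5 that fell (RAB3B), in 1 of the 23 that did not pass (RAB5B) and in 4.91% of all tested genes. The E-box, whose match in the RAB31 window overlaps no GC box, was in 3 of the 18 that rose (RAB5A, RAB21 and RAB31) and in 0 of the 5 that fell. It was in 2 of the 23 that did not pass (RAB4A and RAB24) and in 7.86% of all. The TATA motif TATAAA was in 2 of the 46 (RAB7B and RAB40A), against 8.60% of all. The CCAAT motif was in 12 of the 46 (26.1%), against 34.4%. The cAMP response element TGACGTCA and the PU.1-like core GAGGAAGT were in 1 RAB window each (RAB25 and RAB40C), against 2.37% and 2.17%. These are matches of letters on both strands in this window only, a description and not binding sites.

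Of 9 measured RABs of the late endosome, lysosome, phagosome and autophagosome, 4 rose (RAB7B, RAB12, RAB7A and RAB39A) and 1 fell (RAB20), with a median of 0.29 (55.6% called, against 26.4% of all genes). These counts moved when single arrays were left out. Without unstimulated replicate 2, unstimulated replicate 3 or PMA replicate 1, 1 member was higher. In that order, 19.6%, 19.6% and 18% of all genes were called there. Without PMA replicate 2 or PMA replicate 3, 2 members were higher (20.5% and 27.4% of all genes called). Without unstimulated replicate 1, 3 were higher and 2 lower (25.9% of all genes called). RAB12, which delivers receptors to lysosomes, kept its call under all of these (7.55, 7.44 and 7.64 unstimulated, 8.10, 8.01 and 8.26 with PMA; 0.58 ± 0.10, adjusted p = 0.00496).

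RAB7A, the central RAB of late endosomes and lysosome fusion, read 11.76, 11.52 and 11.52 unstimulated and 12.06, 11.97 and 11.88 with PMA. All PMA arrays were higher, by 0.37 ± 0.10 (adjusted p = 0.0352), and the call was lost without unstimulated replicate 2, unstimulated replicate 3, PMA replicate 1 or PMA replicate 2 (0.33 to 0.45 over the 6 omissions, adjusted p up to 0.127). A dimmer RAB7A probe set read 6.12 unstimulated and 7.31 with PMA on average, a larger rise of 1.20 ± 0.14. RAB7B, a myeloid relative of RAB7A, read 6.64, 7.32 and 7.35 and then 8.01, 7.54 and 8.57. The rise of 0.93 ± 0.28 (adjusted p = 0.0453) was near the threshold, and of the 6 omissions it passed only without PMA replicate 2 (0.67 to 1.19, adjusted p up to 0.117). RAB39A, described in phagosome acidification, rose by 0.36 ± 0.10 (adjusted p = 0.0322) and passed only without unstimulated replicate 1 among the omissions (0.31 to 0.43, adjusted p up to 0.105). RAB20, also a phagosome RAB, went the other way, from 6.04, 6.29 and 6.17 to 5.39, 5.49 and 5.72 (-0.64 ± 0.12, adjusted p = 0.00616), and kept its call without any of the arrays. RAB24, of autophagy, lay lower on all PMA arrays (-0.37 ± 0.12, adjusted p = 0.0563) and RAB9A, of the route from endosomes to the Golgi, higher on all (0.29 ± 0.11, adjusted p = 0.0885), without passing. RAB9A passed with arrays centred on their medians (0.37, adjusted p = 0.0494), and RAB24 without unstimulated replicate 1 (-0.48, adjusted p = 0.0124). RAB9B and RAB39B did not pass either.

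Of 13 RABs of the endoplasmic reticulum and Golgi, 4 rose (RAB43, RAB30, RAB6A and RAB2B) and 1 fell (RAB33A), with a median of 0.28 (38.5% called, against 26.4% of all genes). Without unstimulated replicate 2 or PMA replicate 1, 2 rose, where 19.6% and 18% of all genes were called. RAB33A, a Golgi RAB of the autophagy and secretion routes that is known from lymphocytes and neurons, fell most. It read 8.56, 8.83 and 8.89 unstimulated and 6.87, 6.71 and 6.74 with PMA, a fall of 3.97-fold (-1.99 ± 0.11, adjusted p = 2.39e-05), with the groups far apart. Its paralog RAB33B did not pass (-0.19 ± 0.12, adjusted p = 0.302). The RAB33B to RAB33A log2 ratio moved from between -1.37 and -1.24 to between 0.36 and 0.65 (exact two-sided permutation p = 0.1, the smallest possible).

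RAB6A, which drives transport at the Golgi, read 9.31, 9.30 and 9.48 unstimulated and 10.01, 9.97 and 9.79 with PMA, a rise of 0.56 ± 0.10 (adjusted p = 0.00558) with no overlap. RAB30, another Golgi RAB, rose by 0.63 ± 0.10 (adjusted p = 0.00343) from an unstimulated mean of 4.55, at the lower quartile. RAB43 rose by 0.68 ± 0.18 (adjusted p = 0.0281), with unstimulated arrays at 6.29, 6.26 and 6.91 and PMA arrays at 7.20, 6.999 and 7.30. It kept its call without unstimulated replicate 3 or PMA replicate 2 alone, and lost it without any other array (0.57 to 0.89 over the omissions, adjusted p up to 0.105). RAB2B passed narrowly (0.39 ± 0.12, adjusted p = 0.0462), and among the omissions only without PMA replicate 3 (0.33 to 0.49, adjusted p up to 0.15).

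RAB1A, RAB1B and RAB2A, which act between the endoplasmic reticulum and the Golgi, did not pass. RAB1A read 9.95, 10.04 and 10.22 unstimulated and 10.40, 10.64 and 10.22 with PMA, overlapping between replicates 3 (0.35 ± 0.13, adjusted p = 0.0929); without PMA replicate 3 it passed. RAB1B also overlapped (0.39 ± 0.15, adjusted p = 0.109), and it passed without unstimulated replicate 1. RAB2A was higher on all PMA arrays (0.28 ± 0.09, adjusted p = 0.0584) and passed with arrays centred on their medians (0.37, adjusted p = 0.0282) and with cyclic loess (0.35, adjusted p = 0.0304). RAB18, RAB36, RAB41 and RAB6B lay between -0.21 and 0.20. The pseudogene RAB1C passed (0.60 ± 0.17, adjusted p = 0.0354), but its probes can share signal with RAB1A and RAB1B, and its call was lost without unstimulated replicate 2, unstimulated replicate 3, PMA replicate 1 or PMA replicate 3 (0.50 to 0.78 over the omissions, adjusted p up to 0.127).

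Of the 3 RABs of lysosome-related organelles, 1 was called (33.3%, against 26.4% of all genes). It was RAB29, which rose from 8.95, 9.18 and 9.21 to 9.70, 9.51 and 9.87 (0.58 ± 0.12, adjusted p = 0.0109). RAB29 is known as a partner of the kinase LRRK2 at the Golgi and at stressed lysosomes. RAB32 (-0.15 ± 0.09) and RAB38 (0.24 ± 0.13), which serve melanosome-like organelles, overlapped between the groups.

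Among 8 RABs of other or less settled function, 1 rose and 2 fell (37.5% called, against 26.4% of all genes). RAB44, an unusually large member with calcium-binding EF-hand motifs that is found in bone marrow cells and granules, had the largest fall of all RAB genes. It read 9.04, 8.43 and 8.53 unstimulated and 6.63, 6.73 and 6.34 with PMA, 4.29-fold lower (-2.10 ± 0.18, adjusted p = 0.000149), and its other probe set gave -2.30 ± 0.20. RAB23, known as a brake on Hedgehog signalling at the cilium, read 7.29, 6.84 and 7.30 unstimulated and 8.22, 8.26 and 7.93 with PMA. The rise was 0.99 ± 0.16 (1.99-fold, adjusted p = 0.00267). RAB40C, which carries a SOCS box for ubiquitin ligases, fell by less (-0.48 ± 0.10, adjusted p = 0.0108), from 8.37, 8.08 and 8.18 to 7.75, 7.72 and 7.73. RAB40A, RAB40B, RAB19, RAB28 and RAB42 lay between -0.07 and 0.14 and did not pass.

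Over all roles, the 31 RAB genes that missed the threshold had log2 fold changes between -0.37 and 0.39, with standard errors of 0.09 to 0.20. Of these, 5 lay past in an alternative that left out 1 array, namely RAB1A, RAB1B, RAB3A, RAB4A and RAB24. RAB10, RAB11A, RAB2A and RAB9A passed, as higher, under both rescalings of the arrays. Of the 29 that passed, 19 kept their call without each array in turn. Averaged over a group, 5 members lay below the highest lower quartile of the arrays (4.57) in at least 1 group: RAB25, RAB30, RAB39B, RAB41 and RAB42.

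**Figure D3:**
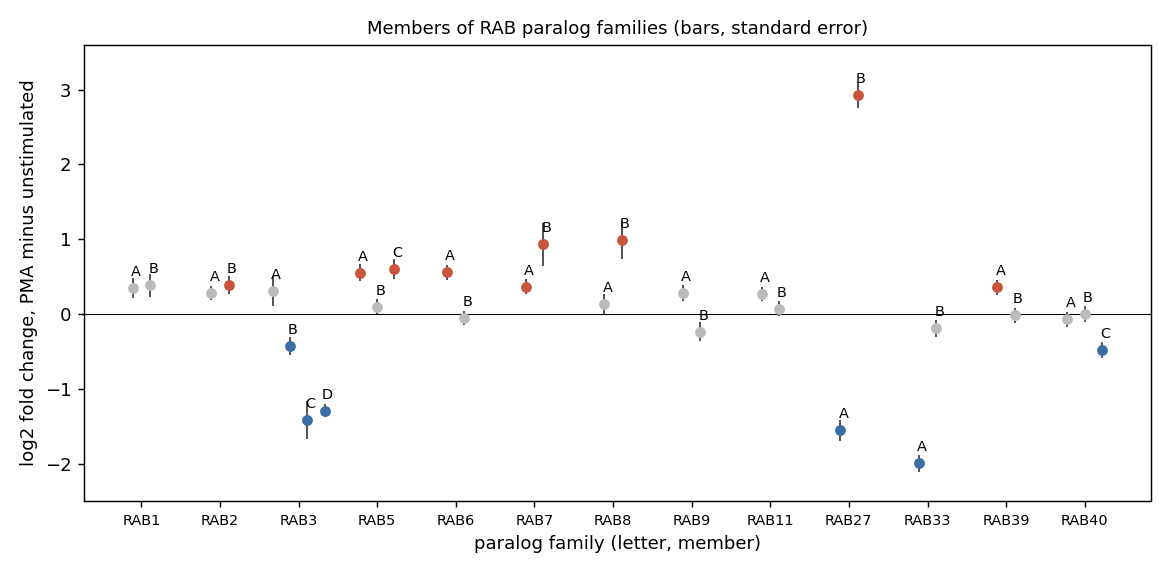
Log2 fold change, PMA minus unstimulated (vertical axis), of the members of the 13 RAB families with several letters, with standard errors; the letter beside a point is the member, red points rose, blue points fell and grey points did not pass. RAB27A and RAB27B lie on opposite sides of 0, and RAB3B, RAB3C and RAB3D lie below 0 while RAB3A lies above.

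The within-array ratio was compared for all 22 pairs of lettered paralogs, where Benjamini-Hochberg adjustment over the pairs gave no p under 0.147, since 3 against 3 arrays allow no raw p under 0.1. The changes in ratio ran from -1.73 for RAB3C over RAB3A to 4.48 for RAB27B over RAB27A. For RAB3D over RAB3A the change was -1.60 ± 0.20, and for RAB8B over RAB8A it was 0.85 ± 0.44. Ratios that moved little were those of RAB1B over RAB1A (0.03 ± 0.28) and of RAB5C over RAB5A (0.05 ± 0.24), both with overlapping groups.

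The genes that load, unload and read RABs are set beside all genes, of which 26.4% were called, 13.2% in each direction, and 36.6% had an unadjusted p under 0.05. With the dimmest 25% of genes left out, 33.8% of all genes were called. Of 7 measured genes for GDI proteins, escorts and prenylation, 2 rose and none fell in the limma fit (28.6% called, near the share of all genes; median 0.09; 2 also passed at an unadjusted p of 0.05). RABGGTB, the catalytic subunit of the RAB geranylgeranyl transferase, went from 8.27, 7.84 and 8.15 to 8.83, 9.06 and 8.56 (0.73 ± 0.16, adjusted p = 0.0118). RABAC1, a membrane receptor for prenylated RABs, rose by 0.45 ± 0.13 (adjusted p = 0.0385) and lost its call without any array but unstimulated replicate 2 (0.34 to 0.57 over the alternatives, adjusted p up to 0.129). GDI2, which recycles RABs through the cytosol, did not pass (0.08 ± 0.09; named after its value was seen).

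Of 40 GEFs, 5 rose and 7 fell (30.0% called against 26.4% of all genes, median 0.06). With the dimmest 25% of genes left out, 6 of 38 rose and 8 fell, where 33.8% of all genes were called. RIN2, a RAB5 GEF of endocytosis and adhesion, rose from 5.88, 6.30 and 6.38 to 9.67, 8.32 and 9.98 (3.14 ± 0.39, adjusted p = 0.000944), the largest change among these regulators in the upward direction. DENND4A, a GEF for RAB10, fell from 10.02, 10.42 and 10.53 to 8.61, 8.77 and 8.15 (-1.82 ± 0.19, adjusted p = 0.000422). DENND1A, a GEF for RAB35, fell from 9.37, 9.16 and 9.29 to 8.16, 7.95 and 7.85 (-1.29 ± 0.11, adjusted p = 0.000172), and DENND2D, a GEF for RAB9, by less (-0.97 ± 0.16). MADD, the GEF of the RAB3 and RAB27 proteins, did not pass (0.09 ± 0.10, adjusted p = 0.582; named after its value was seen). The rise count moved with scaling and arrays. With arrays centred on their medians 9 rose, and with cyclic loess 8. Of all called genes, 61.8% and 59.8% were higher in these settings, against 50.1% in the main fit. Without unstimulated replicate 2, PMA replicate 1 or PMA replicate 2, 3 GEFs rose. In that order, 19.6%, 18% and 20.5% of all genes were called there.

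Of 31 GAPs, 8 rose and 4 fell (38.7% called against 26.4% of all genes, median 0.01). With the dimmest 25% of genes left out, the GAP counts stayed the same, where 33.8% of all genes were called. TBC1D30, a GAP with activity on RAB8, fell from 9.26, 10.42 and 10.49 to 6.15, 5.91 and 5.75, 17.4-fold lower (-4.12 ± 0.31, adjusted p = 8.34e-05). TBC1D9 (1.65 ± 0.22), TBC1D4 (1.42 ± 0.13), the RAB10 GAP of glucose transporter traffic, and TBC1D16 (1.11 ± 0.09), a GAP for RAB4, rose most. Without unstimulated replicate 2 or PMA replicate 2, 5 GAPs rose, where 19.6% and 20.5% of all genes were called.

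Of 50 effectors, 11 rose and 8 fell (38.0% called against 26.4% of all genes, median 0.09). With the dimmest 25% of genes left out, 10 of 44 rose and 8 fell, where 33.8% of all genes were called. SYTL3, a synaptotagmin-like protein that binds RAB27, led with 5.05, 5.44 and 5.58 unstimulated and 8.02, 7.89 and 7.70 with PMA (2.52 ± 0.15, adjusted p = 3.16e-05). The motor adaptor BICD1, an effector of RAB6 (1.47 ± 0.19), and the myosin MYO5A (1.23 ± 0.23), which carries RAB27A-bearing and RAB11-bearing vesicles, also rose. RAB11FIP1, an adaptor of RAB11, fell (-1.01 ± 0.19). Other RAB27 effectors, picked out after their values were seen, went the other way or did not pass: SYTL1 (-0.53 ± 0.15) and EXPH5 (-0.78 ± 0.13) fell, while UNC13D (-0.31 ± 0.10, adjusted p = 0.0519), SYTL2 (0.15 ± 0.15), SYTL4 (0.10 ± 0.10), SYTL5, MLPH and MYRIP did not pass. Some of these were dim beside the lower quartile of all probe sets (4.46 to 4.57). EXPH5 averaged 4.93 unstimulated and 4.15 with PMA, SYTL2 4.33 and 4.49, and SYTL5 3.24 and 3.42. For them the size of a change, or its absence, is uncertain. SYTL1 lost its call without unstimulated replicate 2, unstimulated replicate 3, PMA replicate 1 or PMA replicate 2 (-0.74 to -0.42 over the alternatives). EEA1, the tether that RAB5 recruits to early endosomes and also named after its value was seen, rose from 8.30, 8.61 and 8.93 to 9.29, 9.56 and 9.12 (0.71 ± 0.18, adjusted p = 0.0216), with the call lost without unstimulated replicate 2, PMA replicate 1 or PMA replicate 2 (0.56 to 0.87, adjusted p up to 0.12).

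**Figure D4:**
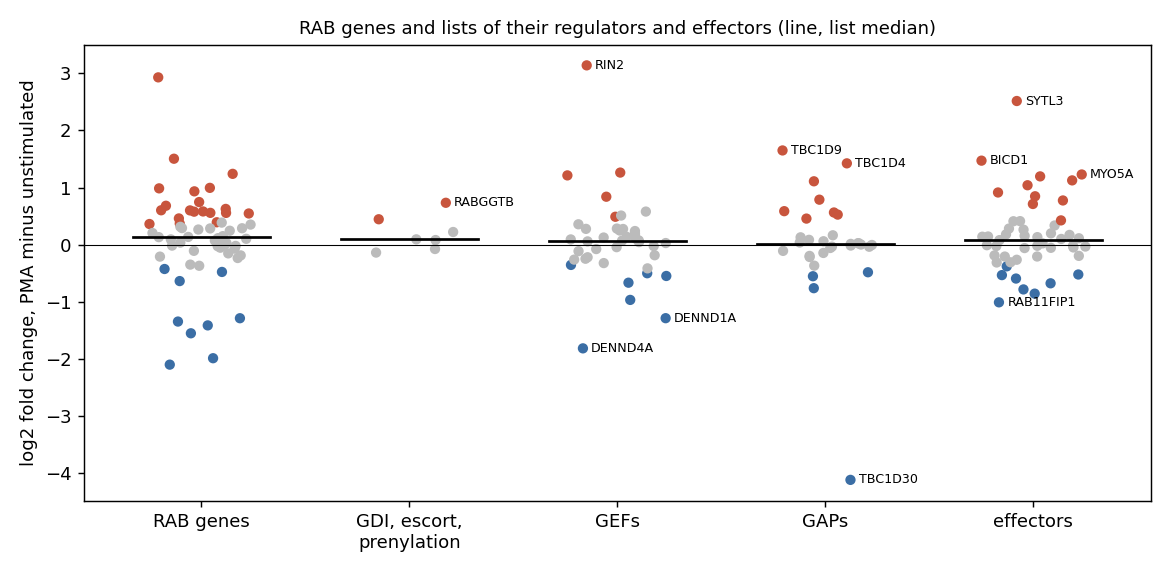
Log2 fold change, PMA minus unstimulated (vertical axis), of the RAB genes and of the 4 lists of their regulators and effectors, 1 point per gene, with red points higher, blue points lower and grey points not past an adjusted p of 0.05; black lines are list medians and sideways position within a list has no meaning. The medians lie between 0.01 and 0.14, and RIN2 at 3.14 and TBC1D30 at -4.12 lie farthest out.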

How the data were processed

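The authors' deposited table holds 1 log2 value per probe set and array. RMA and Partek are named in the submitters' processing notes, with no version. RMA subtracts background, equalises the arrays' distributions and merges probes into 1 value, so small signals show muted changes. The platform annotation supplied gene names: 19460 of the 33297 probe sets had 1 symbol (19429 with a gene ID in the current table), 1754 had several and 12083 had none there. The probe set with the highest mean over the 6 arrays stood for a gene (63 probe sets for the 60 RAB genes). Dim probe sets were kept.

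Groups came from the titles. limma 3.58.1 in R 4.3.3 (lmFit, eBayes, no covariate, total degrees of freedom 7.71) was fitted over all 18417 genes. Benjamini-Hochberg adjustment was used with a threshold of 0.05. The fit was also run on simulated data with independent noise and fewer changed genes, which does not test the calls given here. Precision is limited by the number of arrays (median standard error 0.12 on the log2 scale). The RAB genes and the role, regulator and marker lists were chosen with earlier results of these data known. Members past the threshold with groups that did not overlap were named with their values, plus RAB1A, RAB5A, RAB7A, RAB11A and RAB27A; per regulator list the 3 largest changes in the commoner direction and the largest in the other. Other RAB genes are given by range, or by value where paralogs or near misses. Alternatives were 2 rescalings, a filter on dim genes, other probe set and symbol choices, other variance models, a replicate block, an adjusted p of 0.01 and each array left out. Leaving out both outlying arrays was chosen after seeing the data. The main fit did not pair arrays by replicate number. Deviations of same-numbered arrays from their group means correlated at 0.18, -0.02 and 0.05, and those of differently numbered arrays at -0.15 to 0.11. With 3 arrays in a group these values cannot decide whether arrays were paired, and the replicate block is given as an alternative. Figures used matplotlib 3.10.9.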

Additional observations from a re-analysis of the deposited data

Results flagged for a closer look

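Probe sets that carry several symbols were not part of the comparison, and 3 of those with a RAB symbol gave a higher signal with PMA than in unstimulated cells in a fit over all probe sets. The probe set shared by RAB43 and the read-through gene ISY1-RAB43 was higher by 0.59 ± 0.11 (adjusted p = 0.00933), from 7.32, 7.54 and 7.54 to 8.12, 7.94 and 8.12. The 2 probe sets shared by RAB6A, RAB6C and RAB6D were higher by 0.47 ± 0.09 (adjusted p = 0.00956) and 0.58 ± 0.10 (adjusted p = 0.00634), beside 0.56 for the probe set of RAB6A alone. The shared probe sets of RAB34 (0.20 ± 0.10, adjusted p = 0.246) and RAB4B (-0.01 ± 0.11, adjusted p = 0.95) did not pass.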

How the results depend on the processing

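Of 894 values of single RAB genes under the alternatives, 788 kept their direction and side of the threshold, 56 lost the call, 19 gained it and 31 changed sign. Of the 29 called genes, 17 kept the call under every alternative but the adjusted p of 0.01. The gene-wise test without shared variance called 17 RAB genes (10 higher) and 2843 of all genes, and an adjusted p of 0.01 called 17 (10 higher) and 2824. Without each array in turn, 20 to 27 RAB genes were called, 11 to 18 of them higher and 8 or 9 lower, with 13 to 20 at least 1.5-fold and 3323 to 5042 of all genes. The median of the RAB genes was 0.23 with arrays centred on their medians and 0.22 with the dimmest 25% of genes left out, which removed 6 members. With the replicate block, 28 RAB genes were called (19 higher, 9 lower): RAB2B and RAB39A were lost and RAB1B gained. Sign changes fell on genes that never passed. Centring gave 0.0590, 0.0697, 0.0159, 0.0855, 0.0641 and 0.0327 for RAB15, RAB39B, RAB40A, RAB40B, RAB42 and RAB6B in that order, and cyclic loess 0.0621, 0.0114, 0.0198, 0.0823, 0.0193 and 0.0330. Without both outlying arrays, 33 RAB genes (22 higher) and 34.3% of all genes (6310) were called, and RAB19 was -0.0796, RAB39B 0.0436 and RAB6B 0.0026. Without single arrays the ranges were -0.1593 to 0.0697 for RAB15, -0.0808 to 0.152 for RAB17, -0.0239 to 0.1996 for RAB19, -0.0429 to 0.0739 for RAB35, -0.0686 to 0.0655 for RAB39B, -0.0514 to 0.0901 for RAB40B, -0.1277 to 0.0812 for RAB42 and -0.1106 to -0.0217 for RAB6B. Causes of these moves were not tested. Genes near the lower quartile give uncertain sizes of change.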
